A study of Mus musculus with 8 samples.

Results

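Early granulocyte-monocyte progenitors that carry Mpo transcripts were described in the bone marrow of mice at 4 ages. They were chosen by raw transcript counts, as unique molecular identifiers (UMIs, each counting 1 captured RNA molecule): a member held 5 or more Mpo UMIs and none of Cebpe, F13a1, Ly86, Siglech, Flt3, Klf1 or Ms4a2, genes that mark neutrophil, monocyte, dendritic, multipotent or lymphoid, erythroid, and basophil and mast cell fates. Members were taken from cells with 1000 or more UMIs and under 10% of UMIs in mitochondrial genes, and 1967 of the 46159 such cells (4.26%) were members. Among the 18414 cells with 5 or more Mpo UMIs, 10.7% were members. Each of the 8 libraries was made from the lineage-negative, c-Kit-positive marrow cells of 1 wild-type mouse, so the gate removes mature cells and keeps progenitors and stem cells. Every age had 1 male and 1 female: young mice were 14 weeks old, middle-aged mice 50 weeks, the old male 78 and the old female 79 weeks, and very old mice 95 weeks. The labels give no treatment, transgene or deleted gene for these mice. The mouse was the replicate throughout, and older mice are the 4 old and very old mice together.

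Granulocyte-monocyte progenitors descend from multipotent progenitors and give rise to neutrophils and monocytes. Mpo encodes myeloperoxidase, an enzyme of the primary granules of neutrophils, and its transcript appears in marrow cells before granules form. Cebpa encodes the transcription factor that opens the myeloid programme. Afterwards Gfi1 is known for the neutrophil fate and Irf8 for the monocyte and dendritic cell fates, while Cebpe is known for the later granulocyte stages.

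The libraries held 83062003 to 150135029 UMIs, and the members of 1 mouse summed to between 2118647 and 5246620. The median member held 20008 and 17299 UMIs in the middle-aged male and female, 14725.5 and 14355 in the young, 11841 and 11028.5 in the old, and 15994 and 12256 in the very old. Members were thus deepest at 50 weeks and shallowest at 78 and 79 weeks, so shares of cells with a UMI are given after each cell was thinned to 5000 UMIs, which kept 1762 members and left out the 205 below that depth. The very old libraries belong to another library series than the rest, and that series and the age of 95 weeks cannot be told apart. Of the barcodes of passing cells, 271 occurred in more than 1 library, and none of them belonged to a member in more than 1 library.

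Members held primary granule transcripts beside the progenitor gene Cd34, and in part still stem cell transcripts. All levels here are in CPM, the UMIs of a gene per 1000000 UMIs summed over a mouse's cells of one kind, as the mean ± SD over 8 mice, and these levels are a description, since the members were chosen on transcripts of the same cells. Mpo, fixed by the choice, was at 2118 ± 437. Prtn3, encoding the granule protease proteinase 3, was at 2115 ± 650, and Ctsg, encoding cathepsin G, was at 1628 ± 405. Prtn3 was seen in 95.9% of thinned members and Ctsg in 81.2%. In thinned erythroid cells (2 or more Klf1 UMIs, no Mpo), which should lack them, the shares were 27.8% and 16.3%. Leaving out cells with Mpo also leaves out cells with free granule RNA, so these shares can understate its level. Prtn3 was also seen in 86.9% of thinned stem cells (defined in the next paragraph), at 568 CPM, and Ctsg in 23.8%, at 52.4. Elane, encoding neutrophil elastase, was at 875 ± 676 and was seen in 39.5% of members against 13.6% of erythroid cells. The wide SD came from the mice: Elane lay at 225 in the middle-aged female and at 2261 in the old male. Granule transcripts did not set members apart from the other passing cells. The 12 granule genes summed to 5184 to 10980 CPM in members and 4692 to 12300 in the others, and were lower in members in 5 of 8 mice. Cd34 was at 371.5 ± 27.6, and Kit, the receptor used for the sort, at 109.5 ± 12.5.

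The label was checked against Cebpa, the other marker given for these cells. It was at 77.6 ± 15.3 CPM and was seen in 28.3% of thinned members against 2.65% of erythroid cells. Without thinning, between 49.7% and 62.6% of the members of a mouse held a Cebpa UMI. Its level in members resembled that of early neutrophil progenitors (Mpo 5 or more, 1 or more Cebpe UMIs, no Fcnb; 6763 cells), where it was 84.5 ± 9.04, and stood above that of stem cells (Hlf and Mecom present, no Mpo, Klf1 or F13a1; 1685 cells), where it was 10.5 ± 7.01. Fcgr3, which encodes the Fc receptor by which granulocyte-monocyte progenitors are usually gated, was low at 24.1 ± 12.1, with 9.77% of thinned members holding a UMI, against 127 ± 21.3 in early neutrophil progenitors. Csf1r, encoding the receptor for the monocyte growth factor M-CSF, was at 4.10 ± 2.24.

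Transcripts of earlier cells were present as well, so the label describes only part of the members. Hlf, a transcription factor gene of stem cells, was at 58.3 ± 7.31 in members, 398.8 ± 90.9 in stem cells and 12.7 ± 1.72 in early neutrophil progenitors. Hlf was seen in 23.6% of thinned members against 2.60% of erythroid cells, and unthinned in 35.7% to 54.0% of the members of a mouse. Gata2, a transcription factor gene of stem cells and of erythroid, megakaryocyte and mast cell precursors, was at 77.5 ± 19.1 in members and 108.6 ± 33.2 in stem cells. Genes that stood far above the other passing cells, among the 1339 genes at 100 or more CPM, included Tespa1 at 3.72 times their level, Cpa3 at 3.56, Ccl9 at 2.90 and Cd34 at 2.58. Tespa1 acts in lymphocyte receptor signalling, and Cpa3 encodes a mast cell protease. Elane, Ctsg and Fcgr3 in members lay between their levels in stem cells and in early neutrophil progenitors, as did Hlf, on which the stem cells were chosen, whereas Cd34 was above both, at 224.8 ± 68.9 in stem cells and 189.4 ± 26.7 in early neutrophil progenitors.

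**Figure D1:**
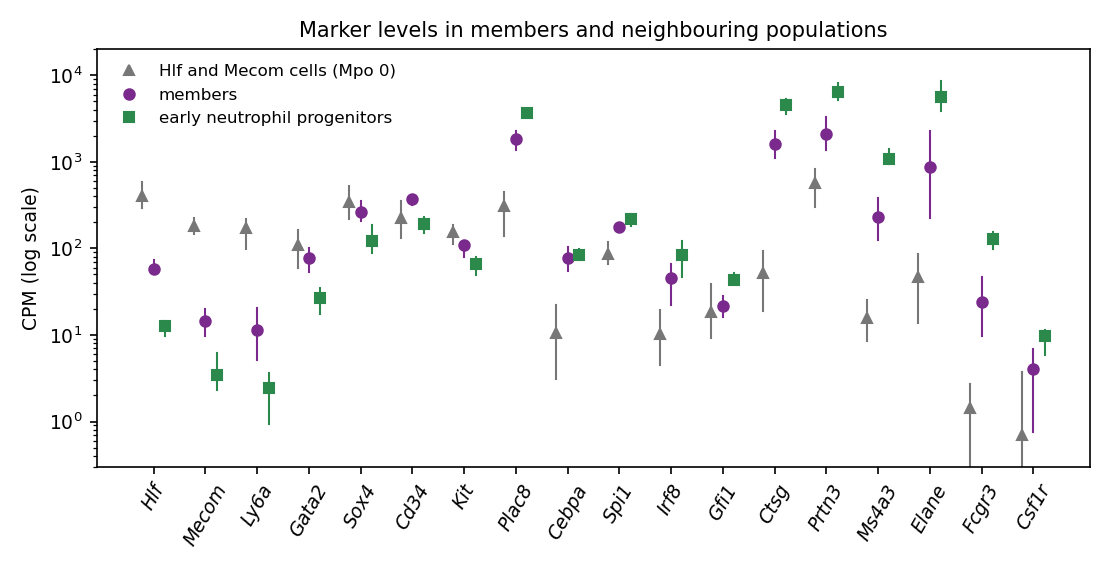
Levels of marker genes (horizontal axis) in CPM on a log scale (vertical axis), in members, stem cells (Hlf and Mecom cells) and early neutrophil progenitors, with points for the mean over 8 mice and bars from the lowest to the highest mouse, cut at the foot of the axis where a mouse was lower. Elane lies at 46.4 in stem cells, 875 in members and 5554 in early neutrophil progenitors, while Hlf runs the other way from 398.8 to 58.3 to 12.7.

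The members differed widely among themselves, and Mpo ordered the other granule genes. Thinned members were split at 0 to 4 Mpo UMIs (602 cells), 5 to 14 (735 cells) and 15 or more (425 cells), and the levels are means ± SD over 8 mice. Elane was at 89.8 ± 156 in the lowest class, 268 ± 212 in the middle and 2425 ± 1239 in the highest. Its lowest class ranged from 15.1 to 475 over the mice, so that mean depends on the highest mouse. Ctsg went from 359.5 ± 131 through 1396 ± 191 to 3310 ± 629, and Ms4a3, a gene of granulocyte-monocyte progenitors, from 52.9 ± 23.5 through 157 ± 71.5 to 550 ± 191. Elane, Ctsg and Ms4a3 were thus higher in members with more Mpo, and Elane most of all. Cebpa was at 38.9 ± 12.7, 88.0 ± 25.7 and 117 ± 43.7, and Irf8 at 27.6 ± 15.4, 51.7 ± 15.5 and 65.5 ± 39.0.

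Stem cell transcripts ran the other way along Mpo. Hlf was at 104.5 ± 32.1 CPM in the lowest class, 56.5 ± 17.3 in the middle and 17.7 ± 11.0 in the highest. Cd34 was at 413 ± 26.3, 412 ± 64.5 and 329 ± 56.1, so it stayed high across the classes. The share of members in each class that held an Irf8 UMI was 10.5%, 20.1% and 21.4%, and that with a Gfi1 UMI was 7.04%, 8.39% and 17.0%.

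**Figure D2:**
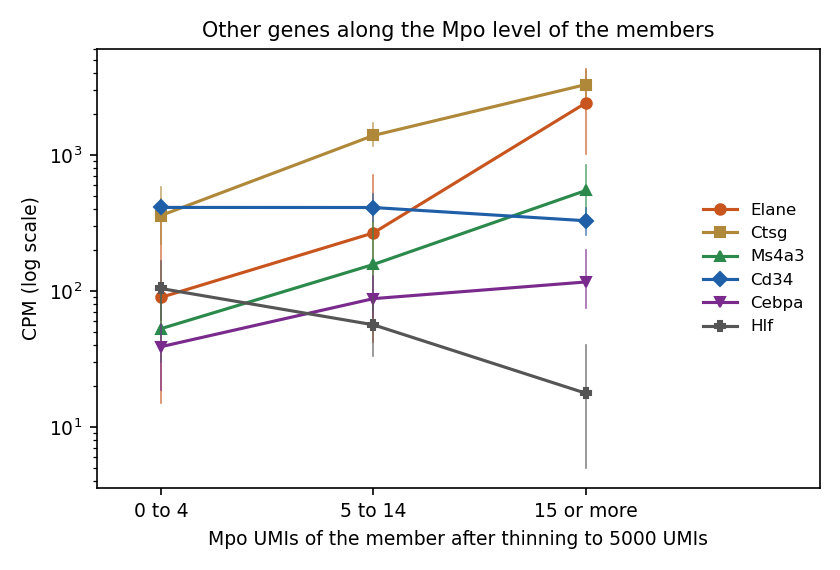
Levels of named genes in CPM on a log scale (vertical axis) in members of 3 Mpo classes after thinning to 5000 UMIs (horizontal axis), with points for the mean over 8 mice and bars from the lowest to the highest mouse, where a mouse under 5 CPM is drawn at 5. Elane, Ctsg and Ms4a3 are highest in members with 15 or more Mpo UMIs, where Hlf is lowest at 17.7.

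At the border of the choice, the lower limit on Mpo cut a continuum and the limit on Cebpe removed more mature cells. The 277 cells with 4 Mpo UMIs that otherwise met the rule held Cebpa at 22.9, Elane at 128 and Hlf at 105 CPM, as means over 8 mice. The 173 members with exactly 5 Mpo UMIs held Cebpa at 36.9, Elane at 80.7 and Hlf at 91.0. By contrast, the 587 cells with 1 Cebpe UMI that otherwise met the rule held Elane at 3840, Cebpa at 97.2 and Hlf at 24.3.

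The share of cells that were members did not differ between young and older mice beyond the spread between mice. It was 3.33% in the young male and 3.69% in the young female, 4.75% and 3.97% in the middle-aged male and female, 3.20% and 5.80% in the old, and 2.93% and 5.84% in the very old. Both older females were thus above, and both older males below, all 4 younger mice. The mean was 3.51% ± 0.258 (SD, n = 2) in young and 4.44% ± 1.59 (n = 4) in older mice, a difference of 0.931 percentage points (exact two-sided permutation test, p = 0.533, where 2 against 4 mice cannot go below 0.0667). Within each sex the older mice differed from the young one by -0.262 percentage points in males and by 2.13 in females, but the male difference turned to 0.217 under 5% mitochondrial UMIs, with both older males above the young one. The middle-aged mean was 4.36% ± 0.552 (n = 2). With the rule applied after thinning, the difference was 0.279 points. A higher share of members and a lower share of the other cells of the gate cannot be told apart here, and deeper cells meet both the Mpo minimum more easily and the zeros less easily.

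**Figure D3:**
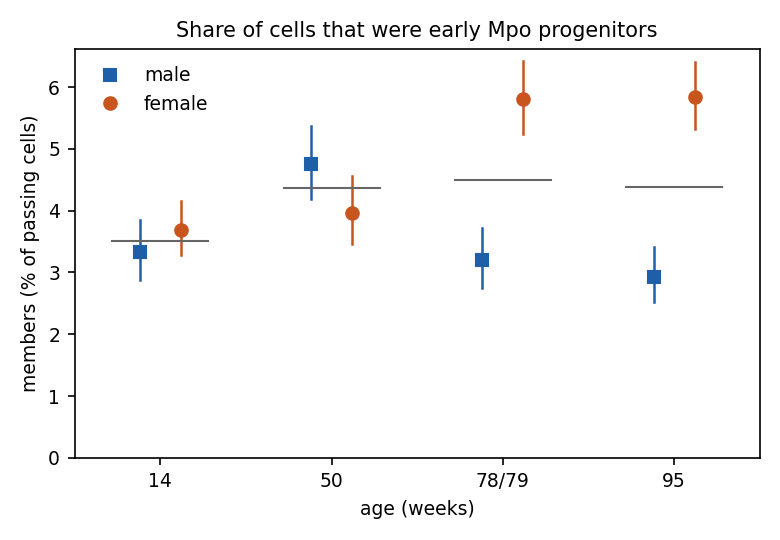
Members as a percentage of passing cells (vertical axis) by age in weeks (horizontal axis), 1 point per mouse with its 95% Wilson interval, which covers counting error only, and lines for the mean of each age. The females at 79 and 95 weeks stand at 5.80% and 5.84%, and the males at 78 and 95 weeks at 3.20% and 2.93%.

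The first question of the comparison by age was which transcripts differed between older and young mice. Of 10456 genes tested on the UMIs summed per mouse (edgeR quasi-likelihood test), 10 passed an adjusted p of 0.05, which is 0.0956% of the genes, with 4 higher and 6 lower in older mice. At an unadjusted p of 0.05, 614 genes passed. Without the old female the count was 58, without the young male 3, without the young female 5, and without the middle-aged male 6, while DESeq2 called 2. All 10 genes but 1 had a mean over the 8 mice under 20 normalised CPM (scaled by TMM factors, as are all CPM of the age tests) and were named after their values had been seen. With 2 mice at each age, p-values rest on a spread estimated over all 8 mice in 1 fit, with 3 residual degrees of freedom.

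Hmox1, encoding haem oxygenase 1, which breaks down haem and is induced by oxidative stress, fell most firmly with age. The gene lies on chromosome 8 from 75093621 to 75100589 of the mm10 genome. Its level was 15.96 and 19.99 normalised CPM in the young male and female, 3.59 and 6.90 in the middle-aged, 1.47 and 3.70 in the old, and 4.18 and 3.48 in the very old. Every later mouse was below both young mice. The log2 change in older mice was -2.49 ± 0.28 (SE, adjusted p = 5.2e-07), a level 0.178 times that of the young, and the gene was called in 20 of 22 alternative settings (leaving out the cells with most UMIs removed no member and is not counted). In a separate fit on age in weeks, Hmox1 was the single gene called of all tested (adjusted p = 0.0073). It was not called when the Mpo minimum was 2, or when the rule was applied after thinning. In the same mice, Hmox1 changed by -1.86 in early neutrophil progenitors (adjusted p = 0.031) and by -1.53 in stem cells (adjusted p = 0.18).

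C1qc, a complement gene of macrophages, was at 5.57 and 4.998 normalised CPM in the young mice and between 0.205 and 2.28 in the 6 later ones, a log2 change in older mice of -2.64 ± 0.57 (adjusted p = 0.039), with 34 UMIs in all young members and 11 in the older, but it was called in only 5 of 17 settings in which it was tested. A list of 15 macrophage genes, put together after these values were seen and holding Hmox1 itself, is given as a description only. Without Hmox1, its 14 genes summed to 43.5 and 34.4 CPM in young members and to between 8.01 and 24.5 in later members. In members, 7 of the 15 genes (C1qa, C1qb, C1qc, Hmox1, Vcam1, Cd5l and Slc40a1) were higher in both young mice than in every later mouse, and none of the 15 was at 0 in all 8 mice. Only 6 of the 15 were among the 10456 genes tested, and all 6 were higher in both young mice than in all 6 later ones. Over all 10456 genes tested, 3.54% were, but the list was chosen with this pattern in view. The sum of all 15 was highest in the 2 young mice in early neutrophil progenitors too, at 26.7 and 40.7 against 17.9 to 26.2. It overlapped in stem cells, at 42.4 and 92.2 against 16.5 to 45.9, and in erythroid cells, at 44.3 and 65.2 against 33.4 to 48.6. Most of the erythroid sum was Slc40a1 alone, at 32.0 and 42.2 in the young mice and 24.4 to 44.2 later. The genes higher in both young mice than in every later mouse numbered 7 in early neutrophil progenitors, 5 in erythroid cells and 4 in stem cells. The share over all genes was not computed in these populations. The part of macrophage RNA in the fall of Hmox1 was not tested.

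P3h3, encoding a collagen prolyl hydroxylase family protein, also fell. It was at 13.4 and 18.4 normalised CPM in the young male and female, 12.04 and 16.4 in the middle-aged, 8.35 and 6.16 in the old and 4.18 and 6.96 in the very old. Its middle-aged levels overlapped the young, and every older mouse was lower, with a log2 change of -1.35 ± 0.24 (adjusted p = 0.0056, called in 13 of 22 settings). Slc16a11, a monocarboxylate transporter family gene, changed by -2.34 ± 0.49 (adjusted p = 0.039), although the old male at 7.37 lay between the young mice at 8.54 and 5.26, and it was called in 7 of 19 settings that ranged from -4.86 to -0.80. The remaining falls were in the olfactory receptor gene Olfr1369-ps1 (log2 change -0.95 ± 0.19, adjusted p = 0.027, called in 9 of 22 settings) and the gene model Gm42418 (-0.44 ± 0.09, adjusted p = 0.039, called in 7 of 22). Gm42418 overlaps ribosomal RNA sequence, and reads from it and from ribosomal RNA cannot be told apart in these counts.

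Aldh1a1, encoding a retinaldehyde dehydrogenase, rose most firmly. It lies on chromosome 19 from 20492715 to 20643465 of mm10. Its level was 2.97 and 1.58 normalised CPM in the young male and female, 8.45 and 13.2 in the middle-aged, 15.2 and 16.02 in the old, and 13.7 and 7.16 in the very old. All 6 later mice were above both young mice. The log2 change in older mice was 2.50 ± 0.38 (adjusted p = 0.00089), which is 5.65 times the young level, and it was called in 17 of 22 settings. Over these settings the change ranged from 1.195, with the rule applied after thinning, to 3.46, at an Mpo minimum of 10, and Aldh1a1 was not called in the fit on age in weeks (adjusted p = 0.94). Aldh1a1 changed by 2.30 in stem cells (adjusted p = 2.5e-06) and by 0.25 in early neutrophil progenitors (adjusted p = 0.93).

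The other genes that rose were scarce. Plscr2, a phospholipid scramblase family gene, had 70 UMIs in all older members and 1 in the young, a ratio of 31.7 per UMI captured (95% counting interval 5.51 to 1270), and its adjusted p was 0.0053, with a call in 12 of 17 settings. Aspa, encoding aspartoacylase, had 59 UMIs in the older and 2 in the young (ratio 13.4, interval 3.54 to 113, adjusted p = 0.036, called in 7 of 17 settings). By the same edgeR test, Plscr2 changed by 3.91 in stem cells (adjusted p = 4.8e-07) and by 3.20 in early neutrophil progenitors (adjusted p = 0.068). Aspa changed by 3.03 in stem cells (adjusted p = 0.00064) and by 2.83 in early neutrophil progenitors (adjusted p = 0.017). H2-Aa, encoding an MHC class II chain, was at 4.08 and 2.63 normalised CPM in the young mice, 5.07 and 4.88 in the middle-aged, 11.8 and 9.86 in the old and 12.2 and 6.55 in the very old. Its log2 change was 1.57 ± 0.33 (adjusted p = 0.039), but it was called in only 7 of 22 settings, over which it ranged from 0.51 to 1.73.

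**Figure D4:**
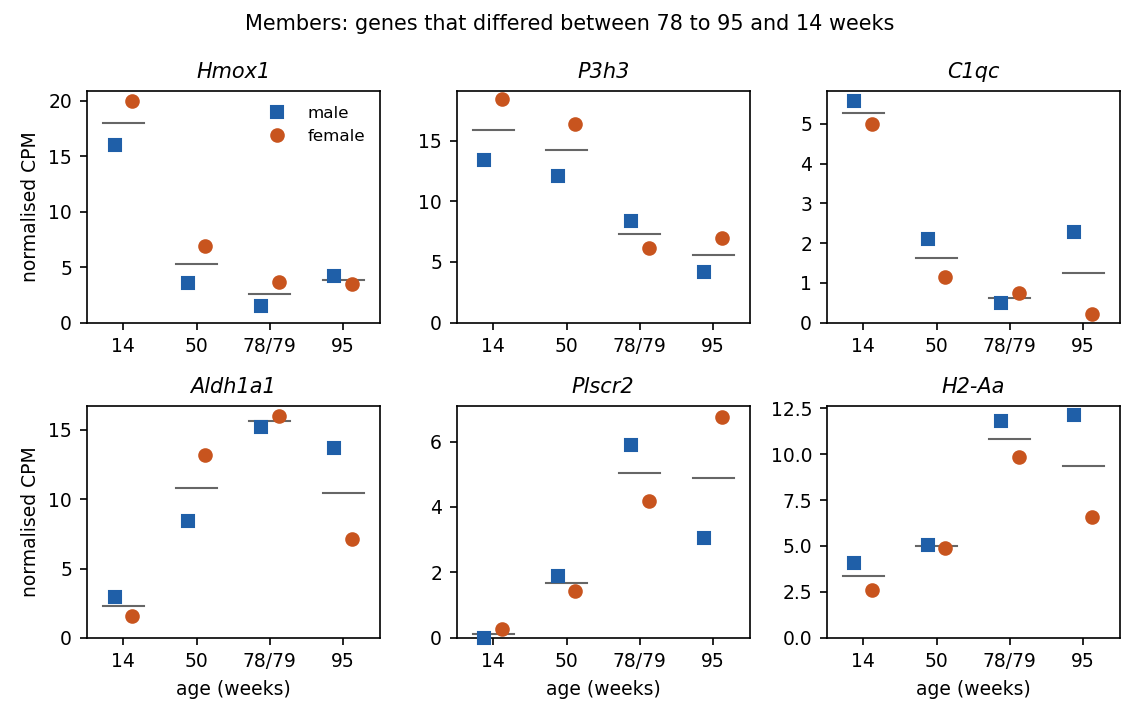
Normalised CPM (vertical axes, each from 0) of 6 genes in members by age in weeks (horizontal axes), 1 point per mouse and a line at the mean of each age. Hmox1 stands at 15.96 and 19.99 in the young mice and at 6.90 or less later, and Aldh1a1 at 2.97 or less in the young mice and at 7.16 or more later.

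None of the 10 genes held as the identity of the cells was called in older against young mice. Cebpa was at 101 and 72.6 normalised CPM in the young, 67.6 and 86.5 in the middle-aged, 83.5 and 80.6 in the old and 55.8 and 72.1 in the very old, so its groups overlapped (log2 change -0.24 ± 0.15, adjusted p = 0.88). Elane was at 447 and 960 in the young and at 2352, 733, 559 and 1524 in the old male, old female, very old male and very old female, with a log2 change of 0.85 ± 0.91 (adjusted p = 0.95). The spread of Elane between mice of 1 age was thus wider than that change. Ctsg changed by 0.45 ± 0.21 (adjusted p = 0.88), Cd34 by -0.02 ± 0.10 and Kit by 0.05 ± 0.11. Over the 17 tested genes of the wider list of progenitor identity, 13 were positive with a median of 0.14. Mpo, which the rule fixed from below, was at 2159 and 2369 in the young, 1576 and 1401 in the middle-aged, 2890 and 2261 in the old and 1946 and 2458 in the very old.

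Granule genes were mostly positive without a call. Over all 10456 genes tested, against which each list here can be read, 49.3% had a positive change in older mice, 2.70% were positive and 3.18% negative at an unadjusted p under 0.05, and 0.0956% were called. Of 12 genes for primary granule proteins and their partners, 10 had a positive log2 change in older mice with a median of 0.23, against -0.0027 over all genes tested, and none was called. At an unadjusted p of 0.05, 2 passed. Nkg7, a granule membrane gene, was at 369 and 332 normalised CPM in the young and at 508, 334, 430 and 439 in the older mice (0.28 ± 0.11), and Serpinb1a, an inhibitor of the granule proteases, changed by 0.23 ± 0.10. The old male was the highest of the 8 mice in Nkg7, as it was in Elane, Prtn3, Ctsg and Ms4a3.

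Members were chosen without Cebpe, F13a1, Ly86 and Siglech, so the rule bears on genes of the monocyte and dendritic cell branch and of later neutrophils. Of 11 tested monocyte and dendritic genes, 8 were positive with a median of 0.16 and none was called. Csf1r was at 0.743 and 3.16 normalised CPM in the young and between 4.91 and 7.37 in the older mice, with 14 and 88 UMIs and an adjusted p of 0.32. Only 5 of 15 later neutrophil genes reached the filter, and all 5 were positive with a median of 0.71, but none was called or passed an unadjusted p of 0.05. Among 30 myeloid transcription factor genes the median was -0.05, with none called and 4 negative at an unadjusted p of 0.05. Of these, Myc, a growth regulator, was at 146 and 155 in the young, and at 83.5, 136, 128 and 152 in the older mice.

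Genes of DNA replication and of mitosis pointed in different directions, and none of them was called. Of 30 S phase genes 25 had a negative change, with a median of -0.12 and 8 at an unadjusted p under 0.05, where 3.18% of all genes were. Uhrf1, which maintains DNA methylation at replication, was at 76.1 and 91.3 in the young, 41.7 and 61.6 in the old and 74.4 and 67.8 in the very old (log2 change -0.46 ± 0.13, adjusted p = 0.43). Mcm5, a helicase subunit, was at 156 and 182 in the young and between 110 and 148 in the older mice (-0.32 ± 0.11). Of 32 G2/M genes 25 were positive, with a median of 0.12 and 2 at an unadjusted p under 0.05, where 2.70% of all genes were. Tpx2, a spindle factor, was at 49.0 and 49.7 in the young, 41.2 and 61.1 in the old and 79.8 and 71.6 in the very old. The old male was the lowest mouse in both lists summed: S genes made up 2127 CPM in its thinned members against 2654 to 3744 in the other 7, and G2/M genes 1772 against 2396 to 3131. Older minus young, the sums differed by -437 CPM for S and 73.3 CPM for G2/M genes, and the latter turned to -259 without both very old mice. Leaving out 1 mouse moved the S difference from -603.5 to -259.2 CPM.

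Most antigen presentation genes had positive changes. Of 17 genes of MHC class I and antigen processing, 14 were positive with a median of 0.19 and none was called, but 5 positive and 1 negative passed an unadjusted p of 0.05. B2m, the light chain of class I molecules, was at 773 and 938 normalised CPM in the young and at 938, 1019, 994 and 1244 in the older mice (0.29 ± 0.10, adjusted p = 0.54). Of 8 class II genes 7 were positive with a median of 0.15, and H2-Aa alone was called. H2-Ab1 was at 51.6 and 41.6 in the young and between 58.1 and 62.8 in the older mice (0.39 ± 0.12, adjusted p = 0.52).

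Most chaperone genes had negative changes. Of 28 chaperone and unfolded protein response genes, 21 were negative with a median of -0.12 and none was called, while 5 passed an unadjusted p of 0.05. Creld2, a chaperone of the endoplasmic reticulum, was at 49.4 and 45.8 in the young, 42.9 and 40.5 in the middle-aged, 26.0 and 36.7 in the old and 25.1 and 36.2 in the very old (log2 change -0.58 ± 0.14, adjusted p = 0.17). Interferon response genes had a median of 0.06 over 34 genes and cytokine receptor genes of 0.05 over 28, with none called in either. In the antioxidant list, Hmox1 was the single call among 25 genes (median 0.07).

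Transcripts of other lineages that the gate could hold did not add a call either. All 8 tested erythroid genes were negative with a median of -0.42, none called and 3 under an unadjusted p of 0.05, among them Gata1, the erythroid master regulator, at 14.1 and 12.4 normalised CPM in the young and between 6.87 and 9.86 in the older mice (adjusted p = 0.61). Of 17 stem and multipotent progenitor genes 10 were negative with a median of -0.07. The lymphoid list had 7 tested genes with a median of -0.04, the megakaryocyte list 10 with -0.11, and the basophil and mast cell list 7 with -0.09, with none called in any of them. CDK inhibitors and D cyclins, NF-kB and inflammation, immediate-early, p53 pathway, glycolysis and mitochondrially encoded genes had medians of -0.01, 0.05, -0.17, -0.06, -0.06 and 0.12, again with none called.

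Genes known to rise in aged stem cells held 2 of the calls. Of 24 such genes tested in members, Aldh1a1 and Plscr2 were called, against 0.0956% of all genes, and 18 were positive with a median of 0.24, against 49.3% of all genes. The list was put together with these libraries known, so its direction is not independent evidence. In stem cells of the same mice 35 of these genes were tested, with a median of 2.30 and 28 called higher. Over all genes, 219 of 10124 passed in stem cells of older against young mice (2.16%, 170 of them higher) and 34 of 12104 in early neutrophil progenitors (0.281%). Members thus held fewer calls than either, but the 3 counts come from separate fits with different depth.

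Middle-aged mice were set against the same young mice. Of the 10456 genes, 49 passed (0.469%), 23 higher and 26 lower at 50 weeks, and 1183 passed an unadjusted p of 0.05. Mpo, on which the members were chosen, was among the 49 as a fall, and its call is not read as a result. The count was above that for older mice (10), but at an Mpo minimum of 2 the order turned, with 7 genes for middle-aged and 9 for older mice, and the difference between the counts was not tested. The count moved with single mice, to 6 without the young male, 31 without the young female, 8 without the middle-aged male and 121 without the middle-aged female, and to 133 without the old male or 148 without the old female, while DESeq2 called 5. Members of middle-aged mice were the deepest, and their libraries stood apart in other ways. Mitochondrially encoded genes summed to 45490 and 45220 CPM in middle-aged members and to 49680 or more in the members of the 6 other mice, and to 45300 and 45100 against 49150 or more in the other passing cells. Chaperone genes summed to 15520 and 15270 CPM in middle-aged members against 13510 or less in the 6 others, and to 15380 and 15500 against 13910 or less in the other passing cells. Middle-aged members were also spread otherwise over the Mpo classes after thinning. In the lowest class were 46.0% and 43.5%, against 27.2% to 36.2% in the 6 other mice, and in the highest 16.8% and 13.5%, against 19.5% to 31.7%. A fixed minimum of 5 raw Mpo UMIs admits lower Mpo fractions in deeper cells, so the rule bears on these shares. The raw median was 19 and 15 Mpo UMIs in middle-aged members and 15 to 20 in the 6 others. The part of these differences in the calls was not tested. With the rule applied after thinning, 27 genes passed.

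Irf8, encoding the transcription factor of monocyte and dendritic fates, was lower in middle-aged than in young members. It lies on chromosome 8 from 120736358 to 120756694 of mm10. Its level was 58.7 and 51.3 normalised CPM in the young male and female, 21.96 and 24.7 in the middle-aged, 56.5 and 64.8 in the old and 41.0 and 49.9 in the very old. Both middle-aged mice were below all 6 others, and so they were within each Mpo class of the thinned members. The log2 change was -1.23 ± 0.16 (adjusted p = 8.3e-06), and it was called in 22 of 22 alternative settings, ranging from -1.44 to -0.92. In older against young members Irf8 changed by -0.05 ± 0.13 (adjusted p = 0.98). Its middle-aged change was -0.79 in early neutrophil progenitors (adjusted p = 0.36) and -1.24 in stem cells (adjusted p = 0.31).

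Pim1, encoding a serine kinase induced by cytokine signalling through STAT proteins, was higher in middle-aged members. It lies on chromosome 17 from 29490753 to 29496112 of mm10. Its level was 89.5 and 150 normalised CPM in the young male and female, 230 and 330 in the middle-aged, 156 and 168 in the old and 110 and 185 in the very old. The middle-aged mice again stood apart from all 6 others, here above them. The log2 change was 1.24 ± 0.13 (adjusted p = 3.9e-07, called in 20 of 22 settings). Pim1 was also called higher in middle-aged stem cells (1.10, adjusted p = 0.0070) and early neutrophil progenitors (1.74, adjusted p = 4.4e-06). Middle-aged calls made up 0.395% of genes in stem cells (40) and 1.66% in early neutrophil progenitors (201).

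Other genes met the naming rule with a rise at 50 weeks. Csf2rb, the shared beta chain of the receptors for IL-3, IL-5 and GM-CSF, was at 18.9 and 21.3 normalised CPM in the young, 38.2 in both middle-aged mice, 25.04 and 19.7 in the old and 19.4 and 30.9 in the very old (log2 change 0.93 ± 0.19, adjusted p = 0.011). Rps6ka3, a growth factor-regulated kinase gene, was at 21.5 and 32.1 in the young and 61.2 and 52.6 in the middle-aged (1.08 ± 0.17, adjusted p = 0.00033). Itga6, integrin alpha 6, rose by 0.65 ± 0.16 (adjusted p = 0.048, called in 9 of 22 settings) and Rbm28, a nucleolar protein gene, by 0.62 ± 0.13 (adjusted p = 0.016). The middle-aged levels of Csf2rb, Rps6ka3, Itga6 and Rbm28 were above those of all 6 other mice.

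Further rises were picked out after their values were seen. Nolc1, Tcof1 and Rrp1b, genes of ribosome production in the nucleolus, rose by 0.52, 0.51 and 0.57 on the log2 scale (adjusted p = 0.048 each), and Odc1, the first enzyme of polyamine synthesis, by 0.48 (adjusted p = 0.048). Of 22 settings, 6 called Nolc1, 5 Tcof1, 11 Rrp1b and 5 Odc1. Hsp90aa1, a cytosolic chaperone, was at 1296 and 1483 in the young and 2157 and 1850 in the middle-aged (0.52 ± 0.11, adjusted p = 0.015). Gclm, a subunit of the enzyme that limits glutathione synthesis, was at 98.01 and 121 in the young and 172 and 161 in the middle-aged (0.60 ± 0.12, adjusted p = 0.014). Aldh1a1 was also called higher at 50 weeks (2.27 ± 0.42, adjusted p = 0.0048), in 14 of 22 settings, with a change of 0.62 when the rule was applied after thinning. Nupr1, a stress-induced chromatin protein gene, was at 0.371 and 0.789 in the young, 8.24 and 3.16 in the middle-aged, 4.91 and 4.68 in the old and 0.760 and 1.02 in the very old (adjusted p = 0.015), with 4 UMIs in young and 50 in middle-aged members.

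Lgals1, encoding galectin 1, was lower at 50 weeks. It was at 294 and 270 normalised CPM in the young, 142 and 168 in the middle-aged, 228 and 195 in the old and 288 and 228 in the very old (log2 change -0.86 ± 0.12, adjusted p = 8.9e-05). Lsp1, a leukocyte actin-binding protein gene, was at 62.7 and 51.8 in the young and 25.3 and 37.1 in the middle-aged (-0.89 ± 0.16, adjusted p = 0.0031). Atp2a3, a calcium pump of blood cells, fell by 0.88 on the log2 scale (adjusted p = 0.017), and Scd2, a fatty acid desaturase gene, fell by 0.85 (adjusted p = 0.00083). In Lgals1, Lsp1, Atp2a3 and Scd2 the middle-aged mice were below all 6 others.

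Further falls were picked out after their values were seen. Fcer1g, the shared signalling chain of Fc receptors, was at 154 and 126 in the young and 78.1 and 86.2 in the middle-aged (-0.76 ± 0.12, adjusted p = 0.00059). Hk3, a hexokinase gene of myeloid cells, was at 77.6 and 69.4 in the young and 38.9 and 48.6 in the middle-aged (-0.75 ± 0.14, adjusted p = 0.0040). Hmox1 was already lower at 50 weeks (-1.80 ± 0.30, adjusted p = 0.00076), called in 16 of 22 settings that ranged from -2.15 to -1.13. Herpud1, of protein degradation in the endoplasmic reticulum, changed by -0.59 ± 0.14 (adjusted p = 0.040, called in 11 of 22 settings). By list, 18 of 28 chaperone genes were positive at 50 weeks with a median of 0.14, of which Hsp90aa1 and Herpud1 were called in opposite directions, and 9 of 12 granule genes were negative with a median of -0.13 and none called. Over all genes, 48.8% were positive at 50 weeks with a median of -0.0087, and 0.469% were called.

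**Figure D5:**
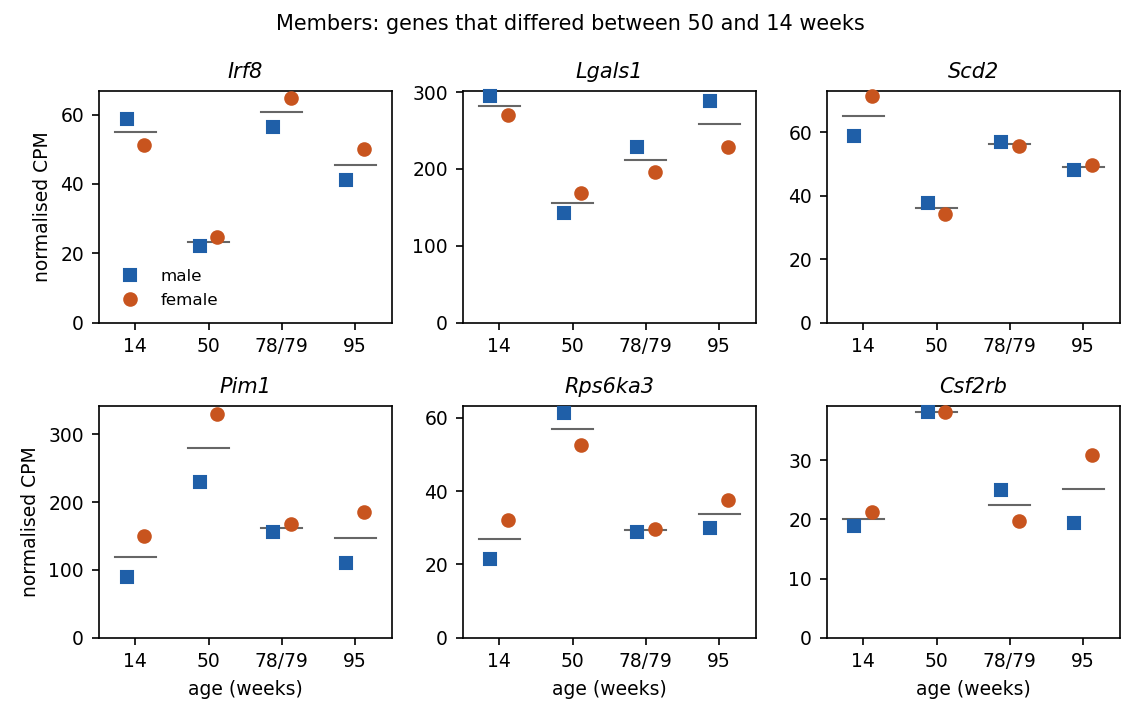
Normalised CPM (vertical axes, each from 0) of 6 genes in members by age in weeks (horizontal axes), 1 point per mouse and a line at the mean of each age. Irf8 stands at 21.96 and 24.7 in the middle-aged mice and at 41.0 or more in the other 6, and Pim1 at 230 and 330 in the middle-aged mice and at 185 or less in the others.

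The share of members with an Irf8 UMI followed its level. After thinning it was 25.7% and 18.5% in the young male and female, 10.2% and 5.88% in the middle-aged, 19.0% and 20.8% in the old and 15.6% and 21.1% in the very old, against 0.437% to 3.72% of erythroid cells. The middle-aged mice were the lowest, 14.1 percentage points under the young mean (exact two-sided permutation test, p = 0.333, the smallest that 2 against 2 mice allow). Older mice differed from young by -2.96 points (exact two-sided permutation test, p = 0.4), which turned to 0.603 without the young male, so no direction was set between them. For Gfi1, the neutrophil fate gene, the shares were 8.55% and 9.05% in the young, 7.97% and 11.8% in the middle-aged, 14.8% and 6.83% in the old and 9.74% and 9.67% in the very old, against 0.0786% to 0.790% of erythroid cells. The difference of older from young mice was 1.45 points (exact two-sided permutation test, p = 0.667). It turned to -5.83 points without thinning, to -1.20 at 3000 UMIs, to -4.11 at an Mpo minimum of 10 and to -0.0575 without the old male, so no direction was set for Gfi1 either. Members with a UMI of both genes were 1.97% and 3.45% of thinned members in the young male and female and 0.588% to 1.71% in the 6 later mice, against 0 to 0.372% of erythroid cells. Older mice differed from young by -1.39 points (exact two-sided permutation test, p = 0.0667, the smallest that 4 against 2 mice allow), but with another draw of the thinned UMIs the difference turned to 0.527, so none was set for this share.

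The old and very old mice were also set against the young mice one age at a time. At 78 and 79 weeks 3 genes passed (0.0287%), Hmox1, Plscr2 and Aldh1a1, a count that was 63 without the old female, 7 without the old male, and 5 without the young female or the very old female. At 95 weeks 27 genes passed (0.258%), 13 higher and 14 lower. Without the young male 1 gene passed at 95 weeks, without the young female 7, without the very old male 14 and without the very old female 9, while without the old male 64 passed and without the old female 69. Library series and age cannot be told apart for these mice, and the genes given next were picked out after their values were seen. Of 21 settings, 10 called Hspa5, 10 Notch2 and 14 Neat1. Hspa5, the main chaperone of the endoplasmic reticulum, was at 522 and 530 normalised CPM in the young, 438 and 454 in the old and 328 and 413 in the very old (log2 change -0.51 ± 0.12 at 95 weeks, adjusted p = 0.038). Notch2, a receptor gene, was at 14.8 and 15.5 in the young, 19.1 and 13.3 in the old and 37.6 and 24.6 in the very old (0.97 ± 0.21, adjusted p = 0.025). Neat1, a nuclear non-coding RNA, was at 51.6 and 51.5 in the young, 32.3 and 35.1 in the middle-aged, 51.6 and 62.6 in the old and 22.4 and 33.2 in the very old (-0.86 ± 0.16, adjusted p = 0.0056).

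Whether the older against young change of a gene differed between members and stem cells of the same mice was tested as an interaction. Levels beside an interaction were scaled over both populations together, so those of members differ somewhat from the levels given above. Of 11183 genes, 73 passed (0.653%), 36 with a higher and 37 with a lower change in members, and the young mice gave only 60 and 120 stem cells. Without the young male 42 passed, without the young female 27, and without the very old female 110. H2afy, encoding the histone variant macroH2A and picked out after its values were seen, averaged 2398 normalised CPM in young and 2255 in older members but 1304 and 757 in stem cells, a difference of 0.70 ± 0.09 on the log2 scale (adjusted p = 1.5e-07). H2afy was thus close in young and older members and lower in older stem cells.

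The change of other genes was higher in members. Ighm, the immunoglobulin M heavy chain gene transcribed early in lymphoid-primed cells, averaged 23.6 and 22.1 in young and older members and 74.1 and 12.5 in stem cells (difference 2.44 ± 0.32, adjusted p = 6.5e-05). Wfdc17, a myeloid protease inhibitor family gene, averaged 11.8 and 17.4 in members and 76.0 and 31.0 in stem cells (1.86 ± 0.27, adjusted p = 2.9e-05). Clec2i, Nucb2 and Siglecg differed by 3.64, 3.103 and 2.22, each at under 10 in members. Members were chosen without Flt3, Ly86, Siglech, Ms4a2 and Cebpe, on which stem cells were not limited. The part of this unlike choice in the differences of Ighm and the other genes was not tested.

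The change of other genes was lower in members than in stem cells. Mllt3, a stem cell maintenance gene picked out after its values were seen, averaged 13.4 and 10.4 in young and older members and 59.0 and 138.8 in stem cells (difference -1.49 ± 0.26, adjusted p = 0.00032). Gadd45g, a stress response gene, averaged 3.94 and 1.93 in members and 3.68 and 22.04 in stem cells (-3.55 ± 0.67, adjusted p = 0.0011). Lpl, lipoprotein lipase, averaged 2.06 and 0.262 in members and 1.12 and 9.88 in stem cells, and Cited4, a transcriptional co-activator gene, 4.78 and 1.95 in members and 2.34 and 11.3 in stem cells. The levels of Gadd45g, Lpl and Cited4 in young stem cells rest on few UMIs. Cxcl10, an interferon-induced chemokine gene, and Bex2 were at 0 in both young stem cell samples and averaged 2.55 and 6.19 in older stem cells, with 3.42 and 0.245 (Cxcl10) and 2.80 and 1.33 (Bex2) in young and older members. For Aldh1a1 the changes of members and stem cells were close, with a difference of 0.14 ± 0.44 (adjusted p = 0.96), on levels of 17.0 and 99.2 in young and older stem cells.

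Against early neutrophil progenitors, 2 of 12098 genes passed the same test (0.0165%). Aldh1a1 averaged 2.13 normalised CPM in young and 12.2 in older members but 3.61 and 4.13 in early neutrophil progenitors, a difference of 2.41 ± 0.43 (adjusted p = 0.021). Car1, a carbonic anhydrase gene of erythroid precursors, averaged 61.6 and 49.9 in members and 201 and 111 in early neutrophil progenitors (0.63 ± 0.12, adjusted p = 0.022). Both genes changed more upwards, or less downwards, in members. Members were chosen without Klf1, an erythroid gene, while early neutrophil progenitors were not limited on it. Among cells with 5 or more Mpo UMIs, 14.4% and 18.8% held Klf1 in the young male and female, and 7.65% to 10.1% in the older mice. The part of this unlike choice in the Car1 difference was not tested. The number passing was 6 without the young male, 1 without the young female, 4 without the middle-aged female, 8 without the old male, 1 without the old female, 0 without the very old male and 4 without the very old female. Where 0 passed, 680 genes had an unadjusted p under 0.05.

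Variation between the members of a mouse was compared last, as the variance of a gene over what its mean predicts. Of 5101 genes in thinned members, 2 had a changed variability in older mice (limma, adjusted p under 0.05 and a log2 difference over 0.1, 0.0392%). Uqcrh, a subunit of respiratory complex III, rose by 0.44 ± 0.07 (adjusted p = 0.0054), from -0.31 ± 0.09 (SD, n = 2) in young to 0.12 ± 0.11 (n = 4) in older mice. The mitochondrially encoded mt-Atp6, of ATP synthase, rose by 0.33 ± 0.05 (adjusted p = 0.0079), from -0.24 ± 0.03 to 0.09 ± 0.18, on levels of 11240 and 11050 normalised CPM in the young and 10840 to 13570 in the older mice. Neither call is firm: 0 genes passed without the young male or the very old male, 1 without the old male and 4 without the very old female. With 0 calls, 131 genes had an unadjusted p under 0.05 without the young male, and 175 without the very old male. The median of all genes was between 0.0163 and 0.0250 in each of the 8 mice.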

How the data were processed

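Droplet single-cell libraries of lineage-negative, c-Kit-positive bone marrow from 8 mice were analysed. The deposited matrices hold raw UMI counts per gene and cell, made by the authors with Cell Ranger (6.0.0 in the file headers) against mm10. The annotation release is not given in the sources used here. Members and gene lists were chosen with earlier results of these data known. No doublet caller was run, and cells of several lineages are removed by the zeros in the member rule. Raw UMI counts were summed over the members of each mouse (R 4.3.3, edgeR 4.0.16, filterByExpr, TMM, robust quasi-likelihood fit, age group and sex as terms, 3 residual degrees of freedom), and p-values were adjusted by Benjamini-Hochberg over all genes tested. All comparisons share the 2 young mice. Older against young is the mean of the old and very old groups minus young. Interactions used mouse as a block. Variability used limma 3.58.1. Shares used exact two-sided permutation over mice. Levels of genes beside a log2 change are CPM normalised by TMM, and sums, Mpo classes and levels by cell population are plain CPM. A log2 change carries its SE.

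Named genes were, for older against young, genes called with every older mouse beyond both young mice and a mean of 20 CPM or more, which left no annotated protein-coding gene. For middle-aged against young they were the 5 largest changes of each direction under the same limits, for interactions the 5 largest of each direction, the genes held as the identity of the cells, and up to 4 genes with the smallest p in each list. Others are said to have been picked out after their values were seen. The genes of the member rule are not read as results, although Mpo was among the 10456 genes tested. On simulated counts for older against young over 10456 genes, 98% of 4-fold and 76% of 2-fold changes were recovered, with 14 false calls, and for variability over 5101 genes 32.5%, with 7 false calls. The variability simulation used a single large change of overdispersion and no spread between mice, so recovery of smaller changes was not measured. Precision of the age comparisons is limited by the 2 mice at each age and the spread between mice. Each mouse gave 163 to 424 members, which bear on counting error, and intervals cover counting error only. Alternatives were DESeq2 1.42.0, other normalisation, filters, member rules, thinning, and leaving out libraries. Gene positions are from a GENCODE annotation of mm10.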

Additional observations from a re-analysis of the deposited data

Results flagged for a closer look

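The share of cells that were members moved in opposite directions in the sexes: older minus young was -0.262 percentage points in males, where both older males were below the young male, and 2.13 in females, where both older females were above the young female. The male value turned to 0.217 under 5% mitochondrial UMIs, where both older males were above the young male, to 0.0227 at Mpo 10 or more and to 0.00705 in members without an Hlf UMI, while the female value stayed positive in each member rule tried. With 1 young mouse per sex this difference was not tested.

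The share of members with an Irf8 UMI also moved apart, by -8.37 percentage points in males and 2.44 in females, but the older females lay on both sides of the young one in each of the 5 other settings tried, with a female value of -2.66 without thinning, and this difference was not tested either.

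The older against young change differed between members and stem cells in 73 genes and between members and early neutrophil progenitors in 2 genes, each by a test of the difference itself.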

How the results depend on the processing

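The share of members and the S gene sum kept their direction under each alternative tried. Leaving out 1 mouse moved the share difference from 0.466 to 1.44 percentage points, the S sum from -603.5 to -259.2 CPM and the G2/M sum from -106.5 to 346.5 CPM. The calls of genes were unstable. Leaving out the 2% of cells with most UMIs removed no member, so it repeats the counts and is left out of the numbers of settings. For older against young (10 genes), 2 passed with DESeq2, 32 with no filter on low counts, 4 with a 10 CPM minimum, 4 with no sex term, 5 without both very old libraries, 1 with age in weeks, 5 at Mpo 10 or more, 3 with the rule after thinning and 1 under 5% mitochondrial UMIs. For middle-aged against young (49), these were 5 with DESeq2, 133 with no filter, 29 with a 10 CPM minimum, 31 with no sex term, 7 at Mpo 2 or more, 27 with the rule after thinning and 31 under 5% mitochondrial UMIs. For old against young (3), 20 passed with no filter, 5 without both very old libraries, 19 at Mpo 2 or more, 0 with the rule after thinning and 1 under 5% mitochondrial UMIs. For very old against young (27), 1 passed with DESeq2, 63 with no filter, 15 with a 10 CPM minimum, 9 with no sex term, 17 at Mpo 10 or more, 10 with the rule after thinning, 9 under 5% mitochondrial UMIs and 8 with the same number of members per mouse. Alternatives chosen after seeing the data were members without an Hlf UMI (6 genes for older, 27 for middle-aged and 11 for very old against young), members with an Ms4a3 or Elane UMI (5, 30, 1 and 14 for older, middle-aged, old and very old) and thinning to 3000 UMIs.

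Leaving out 1 mouse gave 3 to 58 genes for older, 6 to 148 for middle-aged, 2 to 63 for old and 1 to 69 for very old against young, 27 to 110 for the difference from stem cells, 0 to 8 for that from early neutrophil progenitors and 0 to 4 for variability. Variability calls (2) were 1 with no thinning, 1 with another seed, 0 with genes detected in 5% of members, 1 with 20%, 0 with a trend per mouse, 0 with the same number of members and 0 without both very old libraries. The cause of these shifts in the counts was not tested.

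The Gfi1 share difference reversed to -1.20 percentage points at 3000 UMIs, -5.83 with no thinning and -4.11 at Mpo 10 or more, and ranged from -0.0575 to 2.60 with 1 mouse left out, where that of Irf8 ranged from -6.53 to 0.603. The difference in the share with both reversed to 0.527 with another seed and ranged from -2.13 to -0.651 with 1 mouse left out. Log2 changes of uncalled genes in older against young members also reversed. Gfi1 was 0.14 at Mpo 2 or more, 0.21 with the rule after thinning and 0.043 under 5% mitochondrial UMIs. Irf8 was 0.16 without both very old libraries, 0.025 under 5% mitochondrial UMIs and 0.0295 in members without an Hlf UMI. Cd34 was 0.17 at Mpo 2 or more, and Kit was -0.0043 without both very old libraries. With 1 mouse left out, Cebpa ranged from -0.60 to 0.10, Gfi1 from -0.29 to 0.17, Irf8 from -0.27 to 0.14, Cd34 from -0.075 to 0.033, Kit from -0.036 to 0.15 and Fcgr3 from -0.22 to 0.44. No replicate block was fitted for the ages, since the labels carry no replicate numbers, and the male and the female of each age enter through the sex term. Cell populations of a mouse were compared with the mouse as a block. Of the single-gene values recomputed, 1503 kept their side of the threshold and direction, 339 lost the call, 8 gained one and 17 reversed.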
